A study of Mus musculus with 12 samples.

Results

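The clustered protocadherins are neuronal adhesion genes that lie in 3 neighbouring arrays, called alpha, beta and gamma. They were taken from the deposited count table as every row whose symbol starts with Pcdha, Pcdhb or Pcdhg followed by a digit or by a, b or c and the number, which gave 59 of 22899 rows: 15 alpha, 22 beta and 22 gamma. The members were selected by symbol and not by a measured value. The family itself was picked on earlier results of these same counts over the 4 groups, so the counts of called members and their medians are given as a description. The libraries came from primary neurons of C57Bl6 mice. One experiment exposed them to oxygen-glucose deprivation (OGD), a culture model of ischaemia, and the other to kainic acid (KA), which activates ionotropic glutamate receptors of the kainate and AMPA classes, at 100 µM in the medium. Each experiment had its own controls, whose treatment label reads none, giving 4 groups of 3 libraries. The sources used here do not give the length of exposure, the brain region or the age of the cultures. The labels do not state whether replicates came from separate cultures; each p-value therefore reflects the spread among these libraries, and that spread may be technical.

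Clustered protocadherins are cell surface proteins of the cadherin superfamily. Each neuron switches on a small set of them by promoter choice, which depends on CTCF, cohesin and DNA methylation. The proteins join into mixed complexes that recognise the same combination on another membrane, and this serves dendrite self-avoidance, axon spacing and neuron survival in mice. Alpha and gamma genes each have a variable first exon, which encodes the extracellular and transmembrane part, spliced to last exons that the whole cluster shares. Beta genes are single-exon genes with no shared cytoplasmic end. The last members of the alpha and gamma clusters, Pcdhac1, Pcdhac2, Pcdhgc3, Pcdhgc4 and Pcdhgc5, are called C-types, and the others are called alternate members.

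In GENCODE M21, on the build mm10 (GRCm38) that the submitters name, 58 of the 59 rows were found, all on the plus strand of chromosome 18. The alpha cluster runs from position 36930184 to 37187661, the beta cluster from 37264938 to 37524479 and the gamma cluster from 37661793 to 37841873. The gaps are 77.3 kb between alpha and beta and 137.3 kb between beta and gamma. The longest transcript of each alpha and gamma member has 4 exons, and that of each of the 22 beta members has 1. The row not found, Pcdha4-g, had 0 counts in every library. Pcdha4 had at most 0.119 CPM (a gene's share of the library's counts on the CPM scale, after edgeR's TMM scaling) and Pcdhb1 at most 0.239 CPM in any library. Those 3 rows did not pass the filter on low counts, which left 56 members tested: 13 alpha, 21 beta and 22 gamma. Pcdha4 has 404 exonic bases that no other annotated gene covers, against a median of 2409 among alternate alpha members. Whether this overlap lowered its count was not tested, so its low count is not a measure of its expression.

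Some sequence is repeated between members, which limits how reads can be assigned. Of the 50-base stretches in a member's unshared exon sequence, a median of 14.7% also occurred in another member among the alternate alpha genes, with a range of 9.83% to 23.4%. The median was 3.48% among beta genes and 1.41% among alternate gamma genes, and it was 0% in the C-types. Reads in these stretches may have been dropped or split between members, which makes small differences between neighbouring alpha genes uncertain.

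Gamma and alpha members were counted at a higher level per length than beta members. Levels were compared per kb of exon that no other annotated gene covers, because the shared last exons cannot be assigned to 1 gene. How the authors' counting treated reads in those shared exons is not known. A member's whole count was divided by its unshared length, so if such reads were counted, the alpha and gamma levels per kb are overstated against beta. The median level over the 12 libraries was 8.75 CPM per kb in gamma, 7.94 CPM per kb in alpha and 1.96 CPM per kb in beta. The highest level in each cluster belonged to Pcdhgc3 with 117 CPM per kb, Pcdhac2 with 25.7 CPM per kb and Pcdhb20 with 5.72 CPM per kb. Pcdhgc3, which promotes dendrite branching of cortical neurons in mice, depended on the length used: it had 83.2 CPM per kb over exons of coding transcripts and 63.2 CPM per kb where other rows of the table alone were counted as overlapping. It was the highest of the gamma members under each of the 3 lengths, followed by Pcdhga11 and Pcdhgc4. Pcdha11 and Pcdha12 followed Pcdhac2 over the first length with 12.2 and 11.0 CPM per kb, and Pcdhb12 and Pcdhb7 followed Pcdhb20 with 5.33 and 4.65 CPM per kb. Under both other lengths Pcdha5 and Pcdha3 followed Pcdhac2 with 11.0 and 9.45 CPM per kb, and Pcdhb7 and Pcdhb17 followed Pcdhb20 with 4.65 and 4.58 CPM per kb; Pcdha11 then had 6.17 and 3.30 CPM per kb, and Pcdhb12 had 1.94. Pcdhga11 had 74.8 CPM per kb over the first length and 35.6 CPM per kb over both others. Pcdhga10 has no base that is free of another annotated gene, and its counts cannot be told apart here from those of an overlapping gene.

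**Figure D1:**
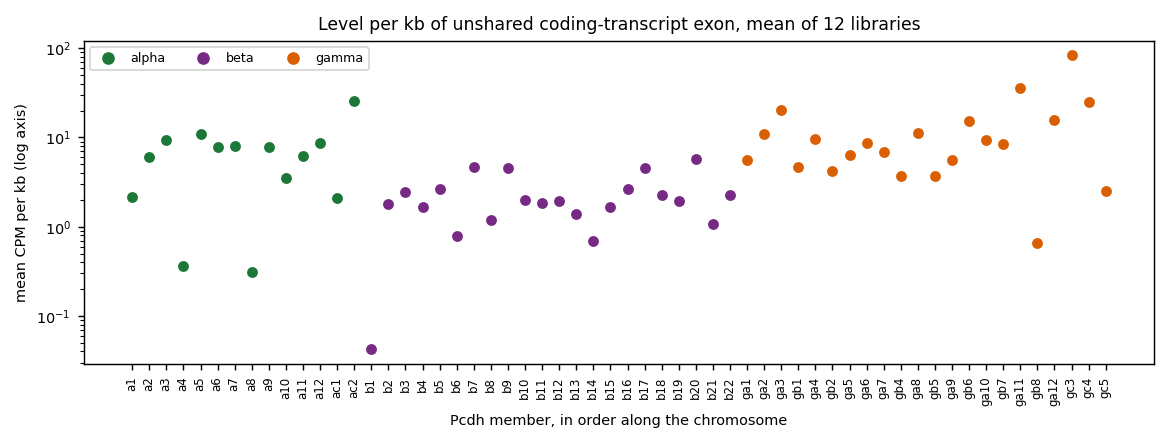
Mean level of each member over the 12 libraries (CPM per kb of exon in coding transcripts that no other member's or gene's coding transcript covers, log axis), in order along the chromosome, with the cluster shown by colour. Beta members lie mostly below alpha and gamma members, and Pcdhgc3 is the highest point at 83.2 CPM per kb.

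KA lowered the beta cluster almost as a whole. Alpha and gamma members were called in both directions, which depended on the scaling (below). Of these, 7 of 13 alpha and 10 of 22 gamma members were not called, against 3581 of all 13139 genes. Of 21 tested beta members, 20 were called lower and 0 higher in KA relative to its control, with a gene called where the Benjamini-Hochberg adjusted p of edgeR's quasi-likelihood test over all genes was under 0.05. KA moved much of the transcriptome: 37.6% of all 13139 tested genes were called lower and 35.2% higher. The median log2 fold change was -0.60 in beta, with a range of -1.10 to -0.23, against -0.021 over all genes tested. A fall of more than 1.5-fold was seen in 11 of the 21, where 21.2% of all genes passed that mark, and a fall of more than 2-fold was seen in 3, against 9.92% of all genes. The libraries of KA lay below those of KA control without overlap in 19 beta members, as they did in 38.4% of all genes. The 3 members that fell most were Pcdhb6, Pcdhb14 and Pcdhb9, followed by Pcdhb21. In bulk RNA, fewer cells of a type and less RNA per cell cannot be told apart.

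Pcdhb6, like the other beta members an adhesion receptor with its own short cytoplasmic end, had 1.53, 1.8 and 1.41 CPM in the KA libraries and 3.65, 3.35 and 3.42 CPM in KA control. Every KA library was below every library of the other 3 groups, in which Pcdhb6 ranged from 3.02 to 4.22 CPM. The fall was 2.15-fold (log2 fold change -1.10, SE 0.18, edgeR adjusted p = 3.33e-06). Pcdhb14 had 3.31, 4.10 and 4.41 CPM in KA against 8.26, 7.81 and 8.18 CPM in KA control, a fall of 2.04-fold (SE of the log2 fold change 0.13, edgeR adjusted p = 2.61e-08). Pcdhb9, one of the more abundant beta genes, had 8.89, 8.59 and 8.57 CPM in KA against 16.3, 17.6 and 18.7 CPM in KA control, a fall of 2.03-fold (SE 0.09 on the log2 scale, edgeR adjusted p = 1.18e-11). For both genes the KA libraries lay below the KA control libraries with a wide gap. Pcdhb21 had 2.75, 2.86 and 3.33 CPM in KA against 6.07, 5.37 and 5.42 CPM in KA control (log2 fold change -0.92, SE 0.15, edgeR adjusted p = 2.84e-06). Pcdhb20, the beta member with the highest level per kb, had 16.4, 17.0 and 16.9 CPM in KA against 23.4, 22.2 and 22.0 CPM in KA control (log2 fold change -0.43, SE 0.08, edgeR adjusted p = 1.07e-05). The 3 KA libraries of Pcdhb20 agreed closely and lay below all of its controls. The beta member not called was Pcdhb10, named after its values were seen, with 4.20, 4.43 and 5.16 CPM under KA compared with 5.39, 5.71 and 4.91 CPM in its control (log2 fold change -0.23, SE 0.13, edgeR adjusted p = 0.123). Its groups overlapped, as did those of Pcdhb12, where KA replicate 3 at 6.15 CPM was above KA control replicate 3 at 6.13 CPM although the fall was called (log2 fold change -0.44, edgeR adjusted p = 4.05e-03).

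**Figure D2:**
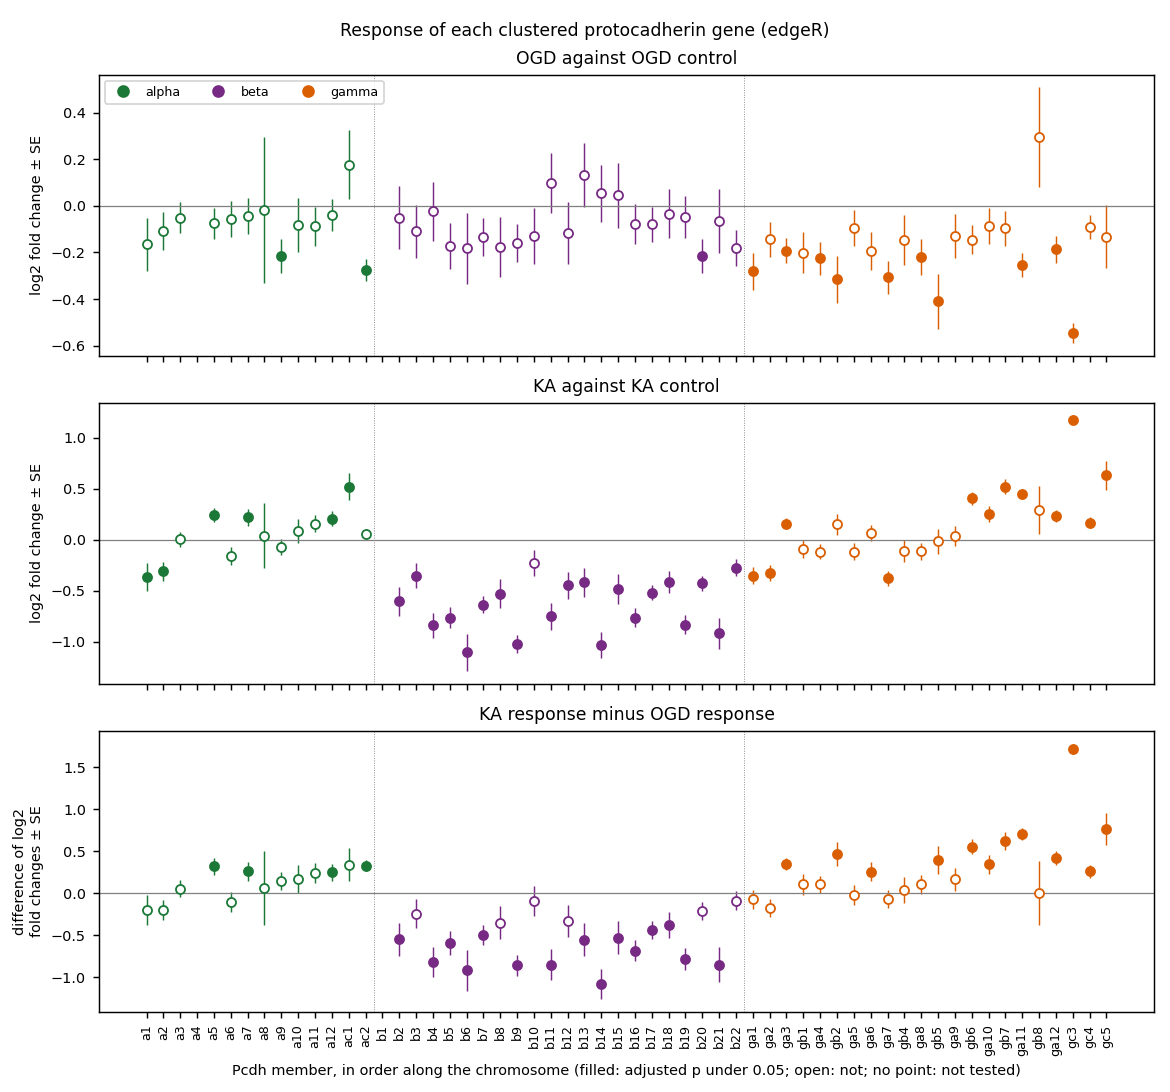
Log2 fold change ± SE from edgeR for each tested member, in order along the chromosome (alpha, beta, gamma), for each treatment against its own control (OGD above, KA in the middle) and for the difference of the responses (bottom); filled points passed an adjusted p of 0.05. In the KA panel all 21 tested beta members lie below 0. Downstream gamma members lie mostly higher than upstream ones, without a steady climb, and Pcdhgc3 is highest at 1.18.

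In the gamma cluster, 9 members rose under KA (40.9%), 3 fell (13.6%) and 10 were not called, and the median log2 fold change was 0.11. Of all tested genes 35.2% were called higher and 37.6% lower, so the share of rises in gamma was near that of all genes. Pcdhgc3 rose most: it had 343, 330 and 327 CPM in KA against 143, 147 and 152 CPM in KA control, which is 2.26-fold (log2 fold change 1.18, SE 0.04, edgeR adjusted p = 1.16e-20). No other group reached the level of the KA libraries, since the highest OGD control library had 226 CPM. Pcdhga11, an A-type gamma gene near the downstream end, had 119, 110 and 116 CPM in KA against 84.5, 82.8 and 84.3 CPM in KA control (log2 fold change 0.45, SE 0.05, edgeR adjusted p = 3.86e-09). Pcdhgb7, a B-type neighbour, had 26.3, 26.2 and 25.5 CPM against 17.0, 18.5 and 18.8 CPM (log2 fold change 0.52, SE 0.07, edgeR adjusted p = 3.10e-07). In both genes the groups were clearly separated. The members that fell were Pcdhga1 (log2 fold change -0.35), Pcdhga2 (-0.32) and Pcdhga7 (-0.38). Pcdhga7 had 19.5, 16.6 and 17.5 CPM in KA against 22.9, 23.3 and 22.9 CPM in KA control (edgeR adjusted p = 4.33e-05).

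In the alpha cluster, 4 members rose (30.8%), 2 fell (15.4%) and 7 were not called, and the median was 0.054. The shares over all tested genes were 35.2% higher and 37.6% lower. Pcdha1 and Pcdha2, the pair at the upstream end, fell with log2 fold changes of -0.37 (SE 0.14, edgeR adjusted p = 0.0196) and -0.31 (SE 0.09, edgeR adjusted p = 3.87e-03). Pcdha5 rose from 22.7, 21.9 and 21.8 CPM in KA control to 26.7, 25.7 and 26.3 CPM in KA (log2 fold change 0.24, SE 0.07, edgeR adjusted p = 2.48e-03), with no overlap. Pcdha7 and Pcdha12 rose by 0.22 and 0.21 on the log2 scale. The calls of Pcdha1 and Pcdha7 were lost without KA replicate 1 or KA control replicate 1, and that of Pcdha12 without KA replicate 2 or KA control replicate 2 (edgeR adjusted p from 0.0616 to 0.0809); Pcdha1 was not called by DESeq2 (adjusted p = 0.0712). The directions in alpha and gamma depended on the scaling. With total counts in place of TMM factors, which moves the median of all genes to -0.28, 0 alpha members were called higher and 6 lower, and 5 gamma members higher and 11 lower, whereas all 21 tested beta members were called lower.

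Position within the cluster ran with the KA response in gamma. Of the 11 upstream gamma members, 1 rose and 3 fell, and their median response was -0.11. Of the 11 downstream members, 8 rose and 0 fell, and their median was 0.29. All tested genes stood at 35.2% higher and 37.6% lower. Over the 22 gamma members, Spearman's rho between order along the chromosome and log2 fold change was 0.78. It was 0.58 over 13 alpha members and 0.17 over 21 beta members. These points share libraries and scaling, and in alpha and gamma the order is also the distance to the shared last exons, so position and distance cannot be told apart. The rho between the share of repeated sequence and the KA response was -0.11 in gamma, -0.20 in alpha and -0.060 in beta.

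Of the 5 C-types, 4 rose under KA, where 35.2% of all tested genes were called higher. Pcdhgc3 is described above. Pcdhgc5, which binds GABA-A receptors in rodent neurons, had 7.19, 6.96 and 8.81 CPM in KA against 5.11, 5.02 and 4.5 CPM in KA control (log2 fold change 0.63, SE 0.14, edgeR adjusted p = 2.01e-04). Pcdhac1 had 8.56, 6.74 and 6.49 CPM against 4.77, 4.59 and 5.77 CPM (log2 fold change 0.52, SE 0.13, edgeR adjusted p = 9.15e-04). Both were low in counts, and neither overlapped between KA and KA control. Pcdhgc4, needed for the survival of cortical interneurons in mice, had 58.6, 57.1 and 59.8 CPM against 51.8, 49.9 and 54.3 CPM (log2 fold change 0.17, SE 0.06, edgeR adjusted p = 7.47e-03), and its call was lost without KA control replicate 2 (adjusted p = 0.0556). Its level in both KA groups was below that in the OGD experiment, where it ranged from 79.4 to 93.0 CPM. Pcdhac2, which spaces the axons of serotonergic neurons in mice, had 81.3, 73.3 and 76.8 CPM against 73.4, 74.2 and 74.9 CPM and was not called (log2 fold change 0.054, SE 0.048, edgeR adjusted p = 0.316). With total counts in place of TMM, Pcdhac2 at -0.20 and Pcdhgc4 at -0.088 changed sign, and the rise of Pcdhac1 was not called.

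**Figure D3:**
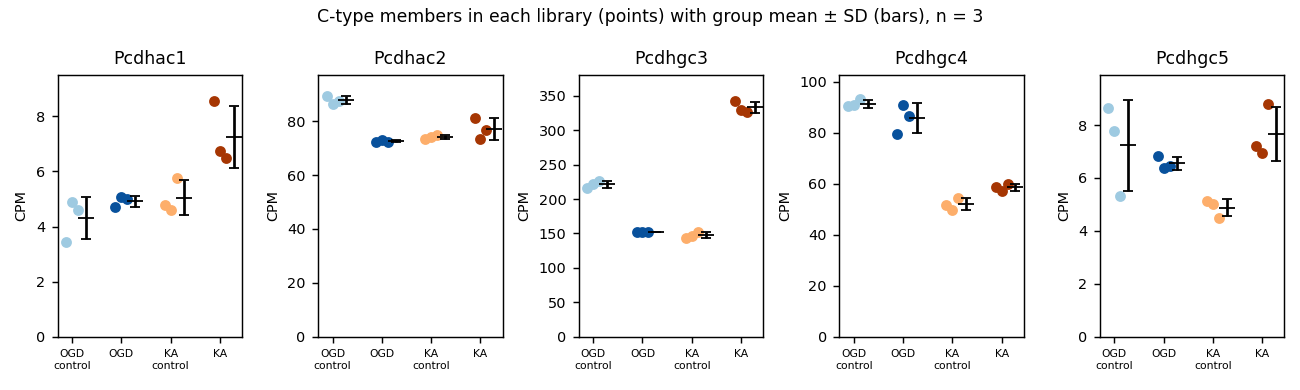
CPM of the 5 C-type members in each library (points), with the group mean ± SD (bars, n = 3). Pcdhgc3 is separated into KA at 327 to 343 CPM, OGD control at 216 to 226 CPM, and OGD and KA control at 143 to 152 CPM; Pcdhgc4 separates the OGD experiment from the KA experiment.

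Fewer members were called under OGD than under KA, as was the case over all genes, and no member was called higher. Of 56 tested members, 13 were called lower against OGD control (23.2%), 0 higher and 43 were not called. Over all tested genes 20.5% were called lower and 17.6% higher, so the share of falls in the family was near that of all genes. The falls were in gamma for 10 of 22 members, in alpha for 2 of 13 (Pcdha9 and Pcdhac2) and in beta for 1 of 21 (Pcdhb20). The median log2 fold change was -0.19 in gamma, -0.075 in alpha and -0.079 in beta, against 0.0064 over all genes tested. Of the 56 point estimates, 50 were below 0, against 6455 of all 13139 tested genes. Their size depended on the scaling. With total counts in place of TMM, the log2 ratio of the summed level went from -0.14 to -0.089 in alpha and from -0.098 to -0.051 in beta.

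Pcdhgc3 fell most under OGD, from 216, 222 and 226 CPM in OGD control to 152 CPM in each of the 3 OGD libraries (log2 fold change -0.55, SE 0.04, edgeR adjusted p = 4.52e-11). Its OGD libraries differed by less than 1 CPM and lay far below the controls. Pcdhac2 fell from 89.3, 86.5 and 87.7 CPM to 72.4, 73.1 and 72.3 CPM (log2 fold change -0.27, SE 0.05, edgeR adjusted p = 3.26e-05). Pcdhga7 fell from 25.4, 22.6 and 24.3 CPM to 19.2, 20.1 and 18.9 CPM (log2 fold change -0.31, SE 0.07, edgeR adjusted p = 1.05e-03). Neither gene overlapped between the groups. Pcdhgb5 fell from 10.7, 12.7 and 10.2 CPM to 6.83, 9.16 and 9.12 CPM (log2 fold change -0.41, SE 0.12, edgeR adjusted p = 6.35e-03), where OGD replicate 1 is lower than the others; its adjusted p was 0.0572 without that library and 0.0773 without OGD control replicate 2. Pcdhgb2 fell by 0.32 on the log2 scale (SE 0.10, edgeR adjusted p = 0.0135), and its adjusted p was 0.148 without OGD control replicate 3 and 0.0833 without OGD replicate 3. The single call in beta, Pcdhb20, fell by 0.22 (SE 0.07, edgeR adjusted p = 0.020) and was lost without OGD replicate 1 or without OGD control replicate 3 (adjusted p = 0.0692 and 0.186). Pcdha9 fell by 0.22 (SE 0.07, edgeR adjusted p = 0.0226) and was lost without any of 4 libraries, with an adjusted p of up to 0.144, and with DESeq2 (0.0567). Leaving out OGD replicate 1 lowered the gamma count from 10 to 6.

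The responses to KA and OGD were compared directly as the difference of their log2 fold changes, each against its own controls. In beta, 15 of 21 members had a lower response to KA than to OGD and 0 a higher one, with a median difference of -0.55. In gamma 12 of 22 were higher and 0 lower (median 0.26), and in alpha 4 of 13 were higher and 0 lower (median 0.17); 33.8% of all genes were called higher and 34.4% lower. The members with the greatest positive differences were Pcdhgc3 at 1.72 (SE 0.06, edgeR adjusted p = 8.95e-21), Pcdhgc5 at 0.77 (SE 0.20, edgeR adjusted p = 9.82e-04), Pcdhga11 at 0.70 (SE 0.07, edgeR adjusted p = 7.84e-10) and Pcdhgb7 at 0.62 (SE 0.11, edgeR adjusted p = 6.38e-06). Those with the greatest negative differences were all beta genes: Pcdhb14 at -1.08, Pcdhb6 at -0.92, Pcdhb9 at -0.86 and Pcdhb11 at -0.85, with edgeR adjusted p between 2.70e-07 and 1.22e-03. With total counts in place of TMM the median of all genes is -0.33, and the alpha counts become 0 higher and 4 lower, the gamma counts 5 higher and 4 lower, and the beta count 21 lower. Called in both treatments were Pcdhga3, Pcdhga11, Pcdhga12 and Pcdhgc3, which fell under OGD and rose under KA, and Pcdhb20, Pcdhga1 and Pcdhga7, which fell under both. The KA rises of Pcdhga3 and Pcdhga12 were small (log2 fold change 0.16 and 0.23). With total counts the gamma members called higher under KA went from 9 to 5, so the opposite directions of Pcdhga3 and Pcdhga12 may depend on the scaling. Pcdhgc3 and Pcdhga11 kept their calls and directions with total counts in both comparisons. The OGD call of Pcdhga1 was lost without OGD replicate 1 (edgeR adjusted p = 0.0532).

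Summed over members, the beta cluster had 159, 149 and 162 CPM in the KA libraries against 238, 235 and 240 CPM in KA control, so that the means differed by -34.1%. The gamma sum was 956, 883 and 920 CPM in KA against 664, 672 and 689 CPM in KA control, so that the means differed by 36.2%. The log2 ratio of the gamma sum was 0.45, and it was 0.15 without Pcdhgc3 and 0.19 with total counts in place of TMM. The alpha sum had a mean of 246 ± 9.56 CPM under KA and 235 ± 4.69 CPM in its control (SD, n = 3 each), and these overlapped. Under OGD all 3 sums were lower than in OGD control: alpha 255 ± 3.93 against 280 ± 4.26 CPM, beta 200 ± 5.22 against 214 ± 4.46 CPM and gamma 711 ± 23.5 against 855 ± 28.4 CPM. The groups of each of those 3 sums did not overlap.

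Ratios between clusters within a library do not depend on the scaling of libraries. Beta over gamma was 0.166, 0.168 and 0.176 in KA against 0.358, 0.350 and 0.349 in KA control, so that the means differed by -51.7%. In OGD it was 0.284, 0.281 and 0.280, and in OGD control 0.254, 0.249 and 0.248. The KA libraries thus had the lowest beta share of the 4 groups and the KA control libraries the highest, with no overlap between any of the groups. Beta over alpha was 0.638 ± 0.0236 in KA, 1.01 ± 0.0142 in KA control, 0.784 ± 0.0155 in OGD and 0.764 ± 0.0049 in OGD control (SD, n = 3 each). Gamma over alpha was 3.74 ± 0.0201 in KA against 2.88 ± 0.0062 in KA control, and 2.79 ± 0.0686 in OGD against 3.05 ± 0.0594 in OGD control. Pcdhgc3 alone made up 36.3% ± 0.98 of the gamma counts in KA and 21.8% ± 0.30 in KA control (SD, n = 3). With Pcdhgc3 left out of the gamma sum and all beta members kept, beta over gamma was 0.259 to 0.274 in KA and 0.448 to 0.456 in KA control, still without overlap.

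**Figure D4:**
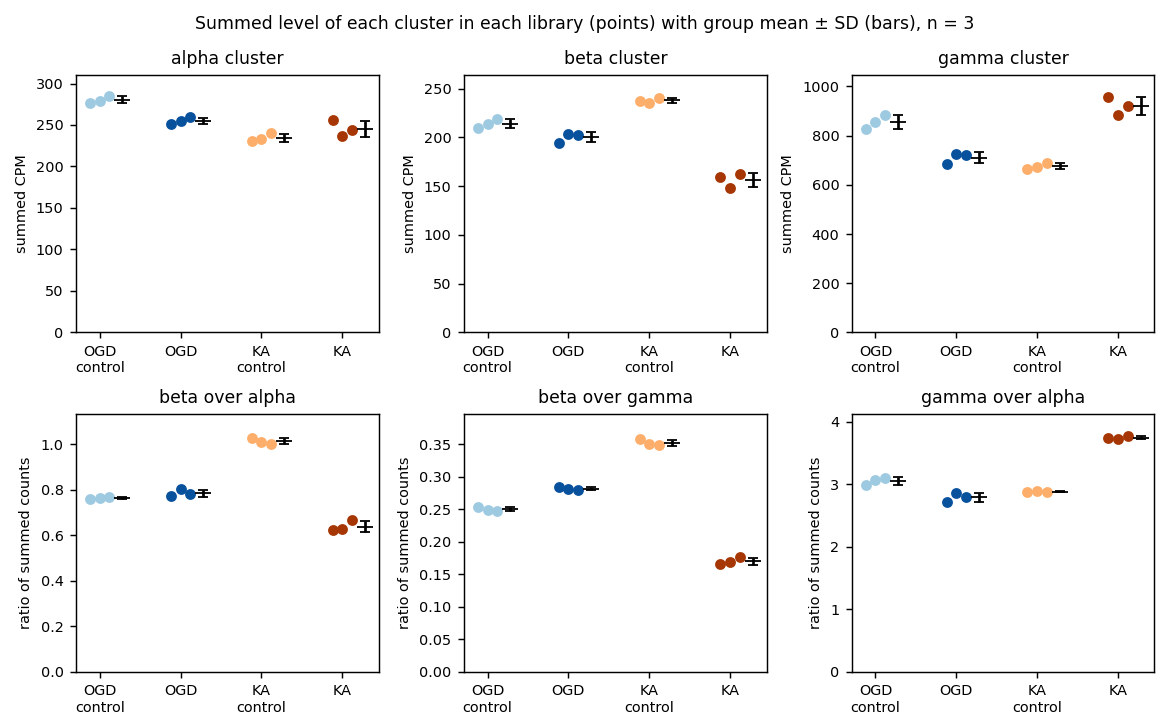
Summed CPM of the alpha, beta and gamma clusters (upper row) and ratios of their summed counts within each library (lower row), as points per library with the group mean ± SD (bars, n = 3). The beta sum is lowest in KA at 149 to 162 CPM, and beta over gamma falls from 0.349 to 0.358 in KA control to 0.166 to 0.176 in KA.

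The controls of the experiments differed from each other as well, which bears on the directions above. Against OGD control, KA control had 8 of 21 beta members higher and 1 lower, 0 of 13 alpha members higher and 8 lower, and 0 of 22 gamma members higher and 14 lower; 34.5% of all genes were called higher and 34.2% lower. With total counts in place of TMM these became 16 beta members higher and 0 lower, 1 alpha member higher and 5 lower, and 1 gamma member higher and 5 lower. The beta count of higher members was 4 with DESeq2, and 5 without KA control replicate 3 or without OGD control replicate 1. Pcdhgc4 differed most, with 51.8, 49.9 and 54.3 CPM in KA control against 90.3, 90.7 and 93.0 CPM in the OGD controls (log2 fold change -0.82, SE 0.05, edgeR adjusted p = 2.53e-14). Experiment and any difference in culture cannot be told apart here. Set against the OGD controls, KA had 15 of 21 beta members lower and 0 higher (28.3% of all genes lower, 29.3% higher), with a median of -0.46. On that scale gamma had 2 of 22 members higher and 8 lower, and alpha 1 of 13 higher and 6 lower. These comparisons share the KA libraries with those above, and they compare across experiments. Pcdhgc3 had a log2 fold change of 0.59 against the OGD controls (SE 0.04, edgeR adjusted p = 6.15e-13), and Pcdhb6 had -1.18 (SE 0.19, edgeR adjusted p = 3.68e-06). OGD set against the KA controls had 12 beta members lower and 0 higher (34.1% of all genes lower, 33.2% higher), 7 alpha members higher and 0 lower, and 6 gamma members higher and 1 lower.

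**Figure D5:**
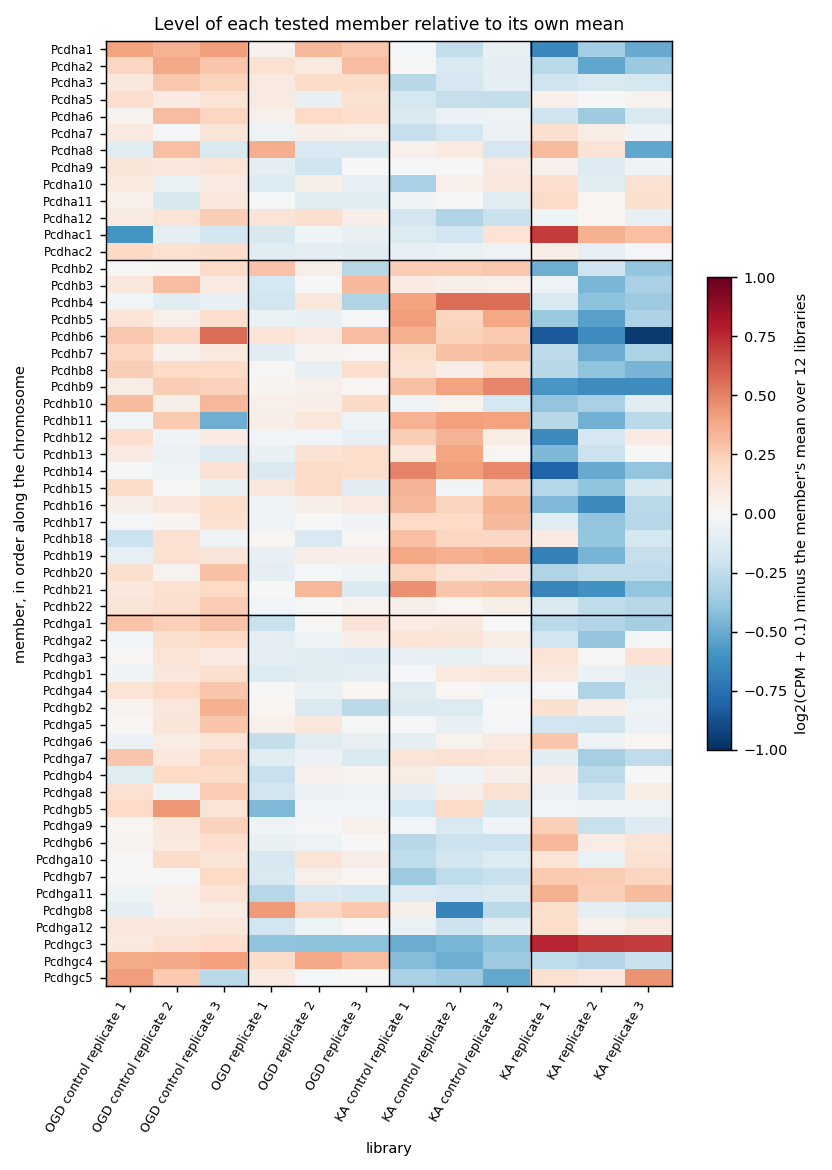
Level of each tested member in each of the 12 libraries, as log2(CPM + 0.1) minus the member's own mean, in order along the chromosome; the colour scale stops at 1 in both directions. The beta block is mostly below the mean in KA and mostly above it in KA control, and the Pcdhgc3 row stands out in KA.

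The list of genes that regulate these promoters held CTCF, cohesin, DNA methylation, TET and SETDB1 pathway genes. Of 25 tested, 8 rose and 11 fell under KA (median log2 fold change -0.22), and 1 rose and 11 fell under OGD (median -0.23). As shares these were 32.0% higher and 44.0% lower under KA and 4% higher and 44.0% lower under OGD. Against these and the lists that follow stand the shares over all tested genes, which were 35.2% higher and 37.6% lower under KA, and 17.6% higher and 20.5% lower under OGD. Ctcf, whose protein ties protocadherin promoters to their enhancers, rose from 157 to 207 CPM under KA (log2 fold change 0.39, SE 0.04, edgeR adjusted p = 2.35e-09) and fell from 174 to 148 CPM under OGD (log2 fold change -0.23, SE 0.04, edgeR adjusted p = 1.03e-04). Tet2 and Tet3, which oxidise methylated cytosine, rose under KA by 1.86 and 1.38 on the log2 scale, and Trim28, a corepressor that recruits SETDB1, rose by 0.61. All the genes named here for KA rose, although more of the list fell than rose. The list ran from a log2 fold change of -1.96 to 1.86 under KA, with 2 genes lower and 3 higher by more than 2-fold. Under OGD Trim28 fell by 0.25, Atf7ip, a partner of SETDB1, fell by 0.45, and Rest, a repressor of neuronal genes, fell by 0.60. Whether any of these changes bears on the beta genes was not tested.

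Of 26 tested genes for signalling and processing partners of the proteins, 14 rose (53.8%) and 6 fell (23.1%) under KA, and 2 rose (7.69%) and 7 fell (26.9%) under OGD. Prkca, a protein kinase C gene, rose by 0.73 under KA and fell by 0.47 under OGD. Adam10, which sheds gamma protocadherins, fell by 0.39 under KA and by 0.28 under OGD on the log2 scale. Of 9 tested non-clustered protocadherins, 4 rose (44.4%) and 1 fell (11.1%) under KA, and 0 rose and 7 fell (77.8%) under OGD. Pcdh8, an activity-regulated member, rose from 6.07 to 64.5 CPM under KA (log2 fold change 3.42, SE 0.07, edgeR adjusted p = 2.06e-26) and fell from 35.3 to 21.3 CPM under OGD. Pcdh17 and Pcdh18 rose under KA by 1.28 and 1.22. Of 16 tested classical and type II cadherins, 4 rose (25.0%) and 9 fell (56.2%) under KA, and 1 rose (6.25%) and 9 fell (56.2%) under OGD. Cdh2, the N-cadherin gene, fell by 0.58 under KA and by 0.30 under OGD, and Cdh6 rose by 1.19 under KA.

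Within 500 kb of the clusters 23 other genes were tested; 9 rose (39.1%) and 6 fell (26.1%) under KA, and 8 rose (34.8%) and 4 fell (17.4%) under OGD. Taf7, a general transcription factor gene between the beta and gamma clusters, rose by 1.01 under KA (SE 0.06, edgeR adjusted p = 7.46e-16) and fell by 0.41 under OGD. Upstream of alpha, Tmco6 and Wdr55 fell by 1.15 and 0.88 under KA. The single-exon structure of beta genes was set beside other protein-coding genes with 1 exon. Of 314 tested, 133 rose (42.4%) and 120 fell (38.2%) under KA, with a median log2 fold change of 0.13, and 24 rose (7.64%) and 128 fell (40.8%) under OGD, with a median of -0.21.

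The labelled cell type was checked on marker genes. Tubb3 and Stmn2, of neuronal tubulin and growth cones, had group means of 1569 to 2360 CPM and 2794 to 3966 CPM. Rbfox3, the NeuN gene, was near 0 with means of 0.259 to 0.522 CPM, and Syt1 was low as well at 0.568 to 1.21 CPM. Map2 had means of 13.3 to 16.6 CPM, and Snap25, Nefl and Nefm lay at 44.6 to 1517 CPM. The summed levels of neuron subtype markers differed between the groups. The 7 inhibitory markers summed to 1074 to 1080 CPM in KA control, 1733 to 1791 in KA, 2921 to 3012 in OGD and 3285 to 3471 in OGD control. Under KA 5 of them were called higher and 2 lower: Slc32a1, the vesicular GABA transporter gene, had a mean of 77.5 CPM in KA and 94.7 CPM in its control, and Dlx1, an interneuron transcription factor gene, had 31.1 and 42.6 CPM. The 7 excitatory markers summed to 1602 to 1630 CPM in KA control, 2988 to 3174 in KA, 1234 to 1270 in OGD and 1730 to 1933 in OGD control, and all 7 were called higher under KA. The 8 astrocyte markers summed to 69.6 to 70.9 CPM in KA control, 192 to 207 in KA, 79.7 to 89.7 in OGD and 99.8 to 112 in OGD control. Mean Gfap was 1.26 CPM in KA control and 1.41 CPM in KA. The sums of oligodendrocyte, microglial, endothelial, mural, choroid plexus and serotonergic markers were at most 50.2 CPM in any library, and Pdgfrb was at 0 in all of them. The part of these shifts in the protocadherin results was not tested.

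Total counts ranged from 12873444 to 21142267 per library, so that 1 count was worth 0.0429 to 0.0832 CPM. Clustered protocadherin rows took 0.114% to 0.133% of the counts. The TMM factors were 0.912 to 0.935 in KA and 1.10 to 1.11 in KA control, and 0.963 to 1.01 in the OGD experiment.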

How the data were processed

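RNA was sequenced from 12 libraries. The authors deposited 1 table of whole-number read counts per gene symbol, not normalized. The tools named in the submitters' processing notes are TopHat 1.4.1, HTSeq 0.6.1 and bcl2fastq 1.8.4, with the build mm10; the sources used here give neither their settings nor the annotation. Columns of the OGD experiment are headed OGT and were matched to the OGD titles by name. Genes were filtered with filterByExpr (minimum count 10, minimum total 15), scaled with TMM and tested in R 4.3.3 with edgeR 4.0.16's quasi-likelihood test, in 1 fit of 4 group means over 12 libraries, with Benjamini-Hochberg adjustment over 13139 genes. The fit was tested on simulated data. Alternatives were DESeq2 1.42.0, its size factors in edgeR, total counts without TMM, other count filters, fits of only the groups compared, a replicate block, other exon lengths and leaving out each library. The limit that a count of 0 allows is 3 counts, or 0.129 to 0.249 CPM depending on the library, for counting error only. In each pair of replicates chi-square over its degrees of freedom was 1.48 to 6.19, above sampling noise, and each library counts once.

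The members and gene lists were chosen with earlier results of these data known. Named with values were, per treatment comparison and cluster, the 4 largest called changes in each direction; the 3 highest levels per kb in each cluster; the 5 C-types; the 4 largest differences of responses in each direction; and, of each related list, the 3 genes with the smallest adjusted p, and Ctcf. Not every gene the rule names is printed. Gene positions came from GENCODE M21. GENCODE gives the symbol Pcdha11 to 2 gene IDs, of which 1 was taken as Pcdha10 by its RefSeq start. A further length, with only rows of the table counted as overlapping, was chosen after seeing the data.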

Additional observations from a re-analysis of the deposited data

How the results depend on the processing

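Fits with DESeq2, DESeq2 size factors, other count filters or only the groups compared changed few counts of called members, and total counts without TMM changed many. With total counts the KA comparison gave 0 alpha members higher and 6 lower, and 5 gamma members higher and 11 lower; the difference of responses gave 0 alpha members higher and 4 lower, and 5 gamma members higher and 4 lower. The controls then gave 1 alpha member higher and 5 lower, 16 beta members higher and 0 lower, and 1 gamma member higher and 5 lower, and OGD gave 1 alpha and 0 beta members lower. Summed levels then had log2 ratios, for KA, of -0.19 in alpha (reversed), -0.86 in beta and 0.19 in gamma, for OGD of -0.089 in alpha and -0.051 in beta, and for the controls of -0.071 in alpha, 0.34 in beta and -0.16 in gamma. Reversal was scored for the named members alone, where the sign changed and either fit called the gene. Other members were not checked and may also change sign. By this rule, the named members that reversed for KA were Pcdhac2 at -0.20, Pcdha5 at -0.015, Pcdha7 at -0.039, Pcdha12 at -0.051 and Pcdhgc4 at -0.088. For the difference of responses they were Pcdha7 at -0.045, Pcdha12 at -0.058 and Pcdhgc4 at -0.045. For the controls they were Pcdhb20 at 0.18 and Pcdhga2 at 0.18. This scaling moves the median of all genes, by its construction. DESeq2 gave 1 alpha member lower for OGD, 1 alpha member lower for KA, and 4 beta members higher and 0 lower between the controls. Without a count filter, the difference of responses gave 2 alpha members higher and the controls 0 beta members lower. Without the most abundant member of each cluster, the log2 ratios for OGD were -0.077 in alpha, -0.18 in gamma, 0.080 for beta over gamma and -0.024 for beta over alpha (reversed). They were 0.15 in gamma and -0.77 for beta over gamma for KA, and -0.26 in gamma and 0.41 for beta over gamma between the controls. The cause of the other changes was not tested. The alpha median per kb was 6.97 over coding transcripts and 6.49 over exons shared with no other row.

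Leaving out each library in turn gave, for OGD, 1 to 2 alpha, 0 to 1 beta and 6 to 13 gamma members lower; for KA, 1 to 2 alpha members lower and 19 to 20 beta members lower; for the difference of responses, 2 to 5 alpha members higher and 0 to 1 gamma members lower; and between the controls, 5 to 9 beta members higher and 0 to 1 lower. The alpha count for the difference was 2 without KA control replicate 2 or OGD control replicate 3, and 5 without OGD control replicate 2. Same-numbered libraries did not deviate together (correlations -0.05 to 0.05), so no pairing was seen. With 3 libraries per group this cannot show that same-numbered libraries were prepared apart, and whether the numbers pair samples is not known. A replicate block left 20 beta members lower for KA and 10 gamma members lower for OGD, and moved the gamma members with a higher difference from 12 to 11. The counts of 5 beta members higher between the controls came without KA control replicate 3 or OGD control replicate 1, and the gamma count of 6 for OGD without OGD replicate 1.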
